A study of Homo sapiens with 6 samples.

Results

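The genes described here encode extracellular matrix glycoproteins, matrix proteoglycans and the lysyl oxidases that crosslink collagen and elastin, 40 genes listed by symbol. Members were the probe sets annotated to those symbols, the brightest for each gene, and 39 of the 40 were measured among 22466 genes tested. The remaining member, VTN, encoding vitronectin, shares its only probe set with SEBOX and was set aside. The samples were SKOV3, an established human ovarian carcinoma line, on 6 single-colour transcriptome arrays. The 3 vector control arrays carried RNA from a stable line with the empty pLKO hairpin vector, labelled normal in genotype. The 3 knockdown arrays carried RNA from a stable line with hairpin shSND1-#2 in the same vector, so every knockdown array rests on 1 hairpin. Both lines were kept untreated in McCoy's 5A medium and 10% fetal bovine serum. The title of the first knockdown array carries an extra number whose meaning the labels do not give. Nothing in the labels says that replicates came from separate cultures. The p-values then cover only the spread among these arrays, which may be technical.

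Matrix glycoproteins are secreted, assembled outside the cell and read by integrins and syndecans on the cell surface. Fibronectin forms a fibrillar network on which collagens, fibrillins and latent TGF-beta complexes are laid down. Fibrillins and microfibril-associated proteins build the microfibrils of elastic fibres, fibulins link them to elastin, and lysyl oxidases, copper enzymes, oxidise lysines so that the fibres crosslink. Matricellular proteins such as thrombospondins, tenascin-C, SPARC and osteopontin act less as scaffold than as modulators of adhesion. In carcinoma cells fibronectin and several of these genes are widely used as markers of a mesenchymal state. The product of SND1, the knocked-down gene, carries staphylococcal nuclease repeats and a tudor domain.

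SND1 was read at log2 levels of 8.83, 8.60 and 8.80 on the control arrays and 5.88, 5.70 and 5.99 on the knockdown arrays (difference -2.89 ± 0.09 SE, adjusted p = 1.3e-06). Its probe set also covers SND1-IT1, a transcript from within the gene. Levels are the deposited log2 values, and differences are knockdown minus control on that log2 scale, fitted over all genes with limma. A level at or below 6.28, the highest mean of 23 background control probe sets, is called inside the background range. A fold is given as measured only where both groups lie above that level, as at least the brighter group's ratio to it where 1 group does, and not at all where neither does. Over the arrays 4457 deposited values exceed 16, the log2 ceiling of a 16-bit scanner, so every fold size depends on the deposited scale. Of 7 measured marker genes of ovarian carcinoma lines, 7 lay above that level in controls and 6 after knockdown, MUC16 being the exception. These markers moved in both directions, and 3 rose and 3 fell. EPCAM rose 7.59-fold, KRT19 1.2-fold and KRT7 1.175-fold. KRT8 fell 2.6-fold, KRT18 1.44-fold and MUC16 at least 1.19-fold, and PAX8 was not called. Of 9 fibroblast and 8 endothelial markers 0 lay above the background level in either group, and of 7 leukocyte markers only CD68 did. Summed over the fibroblast list, the log2 level ran from 7.19 to 7.22 in controls and from 6.99 to 7.06 after knockdown. Summed over the endothelial list it ran from 6.79 to 6.83 and from 6.75 to 6.81. Of 6 mesothelial markers MSLN, UPK3B and LRRN4 lay above background in at least 1 group, and their list's summed log2 level ran from 9.71 to 9.80 in controls and from 10.37 to 10.43 after knockdown. Its members moved in both directions: UPK3B and MSLN rose by 1.35 and 0.73, while LRRN4 fell by 2.82 (at least 3.58-fold) and WT1 fell by 0.16 inside the background range. The part of mesothelial-type expression in the results was not tested.

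After SND1 knockdown 20 of the 39 measured matrix genes fell, 4 rose and 15 did not pass the test. Over all genes tested 31.9% passed, of which those that fell were 16.1% and those that rose 15.9% of all genes. Of the 14 members above background in 1 group or both 12 fell and 2 rose, and of the 9127 such genes 2435 fell and 2770 rose. The other calls among members lay inside the background range. Among members above background in both groups the widest falls were those of THBS1, encoding thrombospondin-1 (84.9-fold), FBN1, encoding fibrillin-1 (10.8-fold), and the lysyl oxidase genes LOXL1 (6.31-fold) and LOXL2 (5.44-fold). FN1, encoding fibronectin, and EFEMP1, encoding fibulin-3, fell from above the background level to below it, by at least 4.42-fold and at least 1.95-fold. SPP1, encoding osteopontin, and MFAP5, encoding a microfibril-associated glycoprotein, rose above background. LUM, encoding lumican, and SPARCL1, encoding the SPARC relative hevin, rose inside the background range. In these bulk samples fewer cells of a type and less RNA per cell cannot be told apart.

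The members' median difference was -0.22 on the log2 scale, against 0.003 over all genes. A fall of at least 1 on the log2 scale that passed the test was found for 10 members and 2.43% of all genes, and a rise of that size for 3 members and 1.84% of all genes. The arrays of the 2 groups did not overlap for 29 members, and for 43.6% of all genes. Since the members were listed with earlier results of these data known, these shares describe the list and are not a test of it. Among all calls 49.7% were higher, and 61.9% when arrays were centred on their medians instead, a scaling under which 5 members rose and 19 fell. Replicates lay close together, with a median SD within groups of 0.07 over the members, and the highest, 0.27, for DCN.

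**Figure D1:**
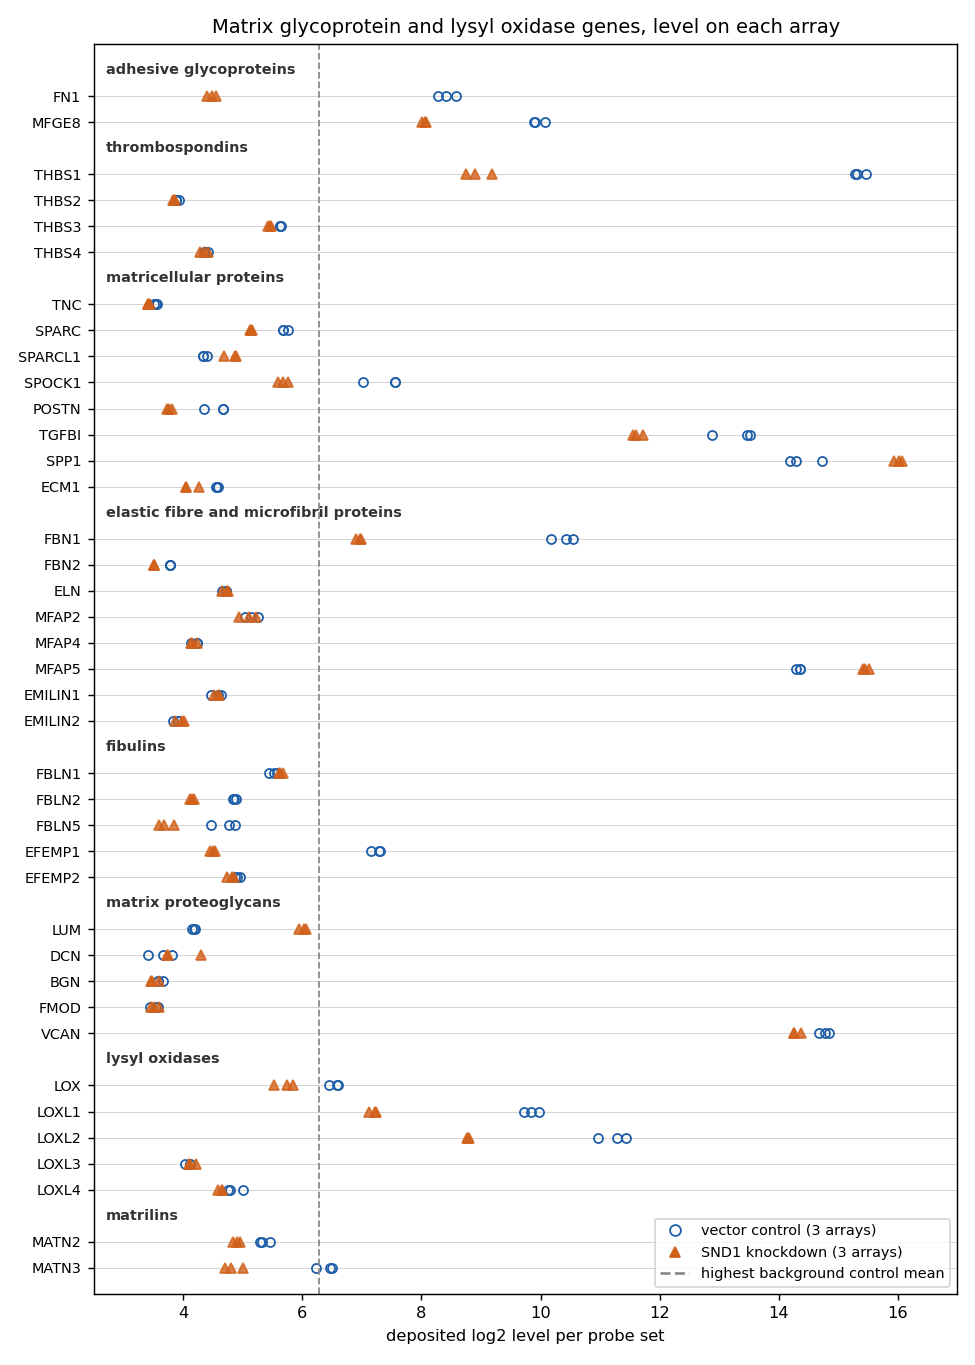
Deposited log2 level (horizontal axis) of each of the 39 measured members (vertical axis, by role) on the 3 vector control arrays (open circles) and the 3 SND1 knockdown arrays (triangles). The dashed line is the highest background control mean, 6.28. FN1, THBS1, FBN1, EFEMP1, LOXL1 and LOXL2 show wide gaps between groups, and most members left of the line show narrow ones.

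**Figure D2:**
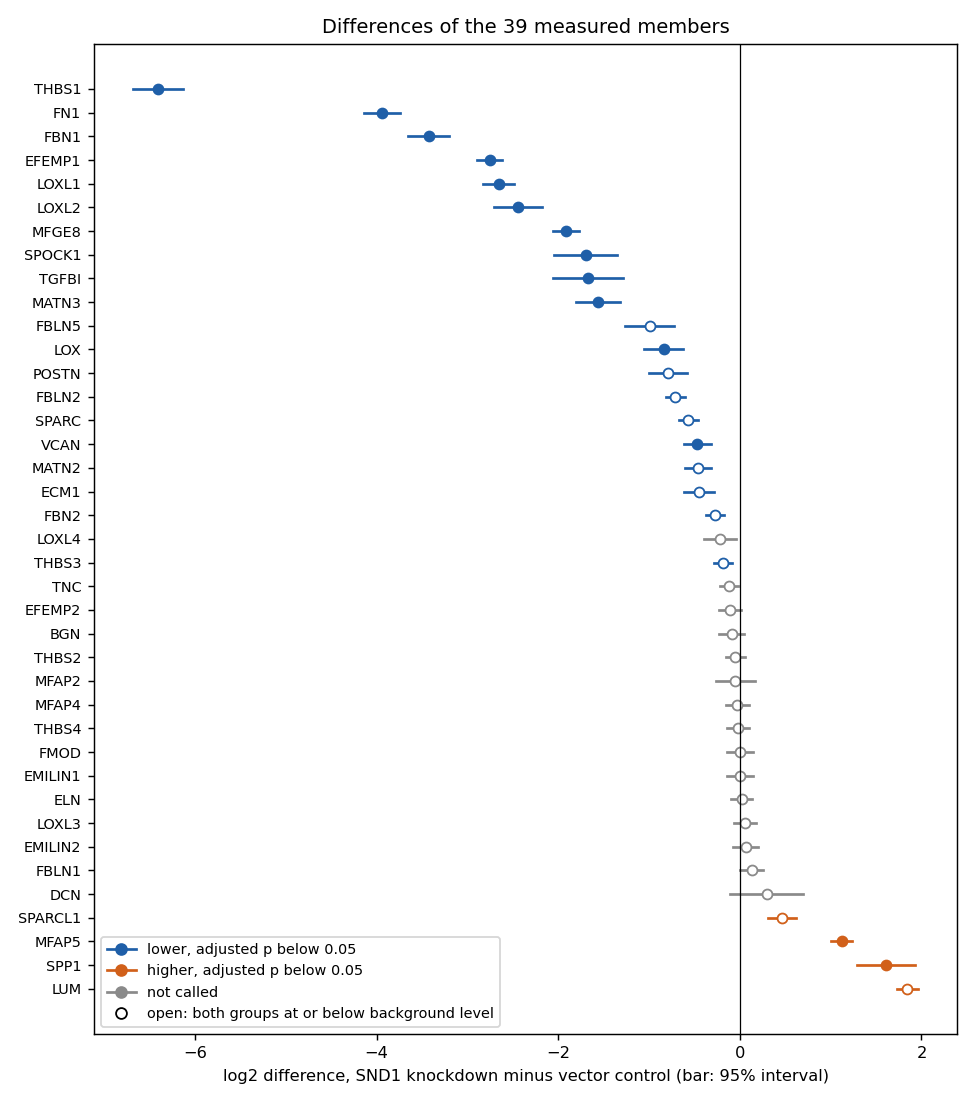
Log2 difference, SND1 knockdown minus vector control, of each member with its 95% interval from the all-gene fit. Blue marks the 20 members that fell, orange the 4 that rose and grey the 15 that did not pass, and open symbols mark genes inside the background range in both groups.

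The promoters of 5 members are shown because, among genes with 1 promoter entry, these had the lowest fitted differences, that of FN1 reaching below background, and the widest rise above background. Each runs from 250 bases before to 50 after the gene's start in RefSeq (GRCh38.p14), 5′ to 3′ on the gene's strand. THBS1 lies at chr15:39580829-39581128, plus strand, FN1 at chr2:215436019-215436318, minus strand, FBN1 at chr15:48644921-48645220, minus strand, LOXL1 at chr15:73926212-73926511, plus strand and SPP1 at chr4:87975464-87975763, plus strand. Capitals mark matches to any of 4 motifs searched on both strands: the E-box CAGGTG read by SNAI2 and ZEB1, the AP-1 site TGANTCA, the TEAD site GGAATG and the TATA box TATAAA.
THBS1: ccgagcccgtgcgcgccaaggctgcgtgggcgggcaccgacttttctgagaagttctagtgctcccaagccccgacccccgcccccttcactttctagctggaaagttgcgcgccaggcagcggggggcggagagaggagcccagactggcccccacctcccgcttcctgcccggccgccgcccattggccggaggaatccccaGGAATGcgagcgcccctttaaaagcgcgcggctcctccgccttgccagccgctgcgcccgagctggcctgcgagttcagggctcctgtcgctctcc
FN1: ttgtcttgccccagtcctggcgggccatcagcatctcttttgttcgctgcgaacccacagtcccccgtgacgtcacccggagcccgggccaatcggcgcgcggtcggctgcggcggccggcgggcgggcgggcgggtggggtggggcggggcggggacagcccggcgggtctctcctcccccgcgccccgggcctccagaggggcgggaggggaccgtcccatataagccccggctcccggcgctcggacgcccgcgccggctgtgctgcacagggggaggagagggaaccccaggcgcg
FBN1: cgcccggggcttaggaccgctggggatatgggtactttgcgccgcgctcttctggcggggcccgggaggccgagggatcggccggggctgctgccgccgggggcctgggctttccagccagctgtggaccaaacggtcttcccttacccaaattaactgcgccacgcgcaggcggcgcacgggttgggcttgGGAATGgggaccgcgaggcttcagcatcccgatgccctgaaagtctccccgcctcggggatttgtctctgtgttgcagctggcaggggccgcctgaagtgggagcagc
LOXL1: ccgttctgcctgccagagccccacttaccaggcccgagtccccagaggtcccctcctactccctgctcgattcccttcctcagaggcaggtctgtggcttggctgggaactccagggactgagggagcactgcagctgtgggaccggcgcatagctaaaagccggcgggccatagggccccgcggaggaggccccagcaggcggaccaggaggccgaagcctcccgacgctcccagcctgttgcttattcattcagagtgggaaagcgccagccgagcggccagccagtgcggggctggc
SPP1: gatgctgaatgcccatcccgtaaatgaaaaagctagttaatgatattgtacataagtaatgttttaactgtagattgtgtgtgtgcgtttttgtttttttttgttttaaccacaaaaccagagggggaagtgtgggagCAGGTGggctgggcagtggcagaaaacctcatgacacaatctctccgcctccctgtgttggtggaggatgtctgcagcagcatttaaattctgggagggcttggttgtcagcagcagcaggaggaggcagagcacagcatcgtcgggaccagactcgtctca

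The THBS1 and FBN1 windows each held 1 TEAD match, the SPP1 window 1 E-box match, and the FN1 and LOXL1 windows 0 matches. Promoter entries were found for 29 of the 39 members, and SPOCK1, ELN, MFAP4, MFAP5, EMILIN1, EFEMP1, LUM, DCN, LOXL2 and MATN2 had none. Where a member had several entries its first was searched, while the shares over all promoters count every entry of every gene. Among the members' later entries, not counted for them here, those of LOX and LOXL3 held an E-box match and that of FBLN5 a TATA match. A TEAD match lay in 5 of the 16 windows of members that fell (THBS1, FBN1, MFGE8, SPARC and MATN3), in 3 of 11 of those that did not pass and in 0 of 2 of those that rose, and in 14% of the 35116 promoters of the same length. An E-box match lay in 1 of 16, 2 of 11 and 1 of 2, and in 20.6% of all promoters. For the AP-1 site the counts were 2 of 16, 2 of 11 and 0 of 2, against 7.71% of all, and for the TATA box 2 of 16, 2 of 11 and 1 of 2, against 11.5%. The ECM1 and POSTN windows held both an AP-1 and a TATA match. The 4 printed promoters of genes that fell are rich in G and C, from 67.3% in LOXL1 to 76.7% in FN1, and that of SPP1 has 47.7%, with a median of 58.7% over all promoters. Over all members' windows this share did not divide by call. POSTN and ECM1, which fell, had 39% and 51.7%, while LOXL4 and EFEMP2, which did not pass, had 85.3% and 80.7%. A match is a description of letters and not of binding.

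Among adhesive glycoproteins both measured members fell. FN1, whose product is the chief fibrillar adhesion protein laid down by mesenchymal cells, was read at 8.28, 8.41 and 8.58 in controls and 4.48, 4.55 and 4.40 after knockdown. All control arrays lay above and all knockdown arrays below the background level (difference -3.95 ± 0.08 SE, adjusted p = 2.9e-07, at least 4.42-fold lower). MFGE8, encoding lactadherin, a bridge between integrins and dying cells, was read at 10.07, 9.91 and 9.89 in controls and 8.01, 8.05 and 8.07 after knockdown. Both groups were well apart and above background, with a 3.76-fold fall (difference -1.91 ± 0.06 SE, adjusted p = 1.4e-06). A second, dimmer MFGE8 probe set lay inside the background range in both groups, with a difference of -0.44. The probe set shared by VTN and SEBOX was at 3.52 in controls and 3.55 after knockdown, inside the background range.

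The thrombospondins divided into 1 gene with a very wide difference and 3 inside the background range. THBS1 encodes a trimeric glycoprotein that binds CD36, CD47 and latent TGF-beta. It was read at 15.27, 15.47 and 15.32 in controls and 9.19, 8.90 and 8.74 after knockdown. The knockdown arrays still lay well above background, and the fall was 84.9-fold (difference -6.41 ± 0.12 SE, adjusted p = 1.9e-07). THBS3, a pentameric relative, differed by -0.18 ± 0.04 (SE) inside the background range (adjusted p = 0.015). That call was lost in 4 of the 13 alternatives that tested it: with the replicate number as a block (adjusted p = 0.059), when arrays were centred on their medians (0.08), when the second control array was left out (0.054) and when the third was (0.051). Over these 13 its adjusted p ran from 0.01 to 0.08. THBS2, a trimeric relative of THBS1, had a difference of -0.05 (95% interval -0.15 to 0.05) and THBS4 one of -0.02 (-0.14 to 0.10), both inside that range.

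Among matricellular proteins SPP1 rose while TGFBI and SPOCK1 fell, all above background in at least 1 group. SPP1 encodes osteopontin, a secreted phosphoprotein that binds integrins and CD44. Its levels were 14.72, 14.19 and 14.28 in controls and 15.94, 16.07 and 16.02 after knockdown. The first control array was the highest of its group, and the groups did not overlap, with a 3.05-fold rise (difference 1.61 ± 0.13 SE, adjusted p = 0.0001). A level above 16 lies past the log2 ceiling of a 16-bit scanner, so the deposited scale is not the scanner's own and fold sizes depend on it.

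TGFBI, whose secreted product is induced by TGF-beta and binds collagens and integrins, was read at 12.89, 13.53 and 13.46 in controls and 11.72, 11.55 and 11.60 after knockdown. Here the first control array was the lowest of its group and still above every knockdown array (3.18-fold lower, difference -1.67 ± 0.16 SE, adjusted p = 0.00023). SPOCK1, encoding the proteoglycan testican-1, was read at 7.02, 7.56 and 7.55 in controls and 5.59, 5.67 and 5.76 after knockdown. It fell below the background level (at least 2.13-fold, difference -1.70 ± 0.15 SE, adjusted p = 0.00012).

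The other matricellular genes stayed inside the background range in both groups. POSTN, encoding periostin, fell by 0.79 on the log2 scale, SPARC, encoding a collagen-binding glycoprotein, by 0.57, and ECM1 by 0.45, with adjusted p of 0.00047, 8.8e-05 and 0.0021. SPARCL1 rose by 0.47 (adjusted p = 0.0013). TNC, encoding tenascin-C, differed by -0.12 (95% interval -0.22 to -0.02), which did not pass the test after adjustment (adjusted p = 0.076), although its groups did not overlap.

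Fibrillin-1 and its partners moved in both directions. FBN1, whose product is the backbone of microfibrils and holds latent TGF-beta complexes, was read at 10.17, 10.43 and 10.54 in controls and 6.99, 6.97 and 6.91 after knockdown. The groups were far apart and both above background (10.8-fold lower, difference -3.43 ± 0.09 SE, adjusted p = 8.2e-07). MFAP5, which encodes the microfibril-associated glycoprotein MAGP-2, was read at 14.35, 14.29 and 14.35 in controls and 15.51, 15.45 and 15.41 after knockdown. It rose 2.18-fold with little spread within either group (difference 1.12 ± 0.05 SE, adjusted p = 4.8e-06).

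FBN2, encoding the fibrillin of developing tissues, fell by 0.27 on the log2 scale inside the background range (adjusted p = 0.0019). ELN, encoding elastin, had a difference of 0.02 (95% interval -0.10 to 0.14), and MFAP2, encoding MAGP-1, one of -0.05 (-0.26 to 0.16). MFAP4, EMILIN1 and EMILIN2, whose products lie at the surface of elastic fibres or in related matrix, had differences of -0.03, 0.002 and 0.06. These last 5 genes lay inside the background range in both groups and their groups overlapped.

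Of the 5 fibulins 3 fell. EFEMP1, encoding fibulin-3, was read at 7.15, 7.29 and 7.30 in controls and 4.45, 4.53 and 4.50 after knockdown, on either side of the background level. The measured ratio is bounded at 1.95-fold or more, with a difference of -2.75 ± 0.06 (SE, adjusted p = 2.9e-07). Within the background range FBLN5, encoding fibulin-5, which in mice is needed for elastic fibre assembly, fell by 0.99 (log2, adjusted p = 0.00053). FBLN2 fell by 0.71 (adjusted p = 2.5e-05). EFEMP2, encoding fibulin-4, which in mice brings lysyl oxidase to elastin, differed by -0.11 (95% interval -0.23 to 0.02). FBLN1 differed by 0.13 (adjusted p = 0.12) and passed the test as higher when arrays were centred on their medians or quantile normalized again (adjusted p = 0.031 and 0.027).

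Among matrix proteoglycans 1 fell and 1 rose. VCAN, encoding versican, a large hyaluronan-binding proteoglycan, was read at 14.67, 14.78 and 14.84 in controls and 14.37, 14.26 and 14.26 after knockdown. The gap was small against the level but wider than the spread (1.38-fold lower, difference -0.47 ± 0.06 SE, adjusted p = 0.00099). LUM encodes lumican, a leucine-rich proteoglycan that spaces collagen fibrils. It was read at 4.18, 4.19 and 4.14 in controls and 6.07, 5.95 and 6.03 after knockdown, a rise of 1.85 ± 0.05 (SE) on the log2 scale that ended inside the background range (adjusted p = 8.2e-07).

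DCN, encoding decorin and next to LUM on chromosome 12, was read at 3.66, 3.40 and 3.81 in controls and 4.29, 3.73 and 3.74 after knockdown. The first knockdown array stood above the other 5, and the difference of 0.30 did not pass (95% interval -0.11 to 0.70, adjusted p = 0.26). A second, dimmer DCN probe set differed by 0.03. BGN, encoding biglycan, and FMOD, encoding fibromodulin, had differences of -0.09 (-0.22 to 0.04) and 0.001 (-0.14 to 0.14).

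Of the 5 lysyl oxidases LOX, LOXL1 and LOXL2 fell, and LOXL3 and LOXL4 did not pass. LOXL1, which acts on elastin, was read at 9.73, 9.84 and 9.98 in controls and 7.23, 7.23 and 7.11 after knockdown. Both groups were above background and did not overlap (6.31-fold lower, difference -2.66 ± 0.07 SE, adjusted p = 8.5e-07). LOXL2, which acts on fibrillar and basement membrane collagens, was read at 10.97, 11.28 and 11.44 in controls and 8.76, 8.80 and 8.78 after knockdown. Its control arrays varied more than its knockdown arrays, and it fell 5.44-fold (difference -2.44 ± 0.11 SE, adjusted p = 6.3e-06).

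LOX, the founding member, was read at 6.45, 6.60 and 6.59 in controls and 5.52, 5.85 and 5.74 after knockdown. Its control level lay just above background, so the measured fall is at least 1.20-fold (difference -0.84 ± 0.09 SE, adjusted p = 0.0004). LOXL3 differed by 0.06 (95% interval -0.07 to 0.18) and LOXL4 by -0.22 (-0.39 to -0.05, adjusted p = 0.059), both inside the background range. LOXL4 passed as lower when only genes brighter than the median over all probe sets were tested (adjusted p = 0.039).

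**Figure D3:**
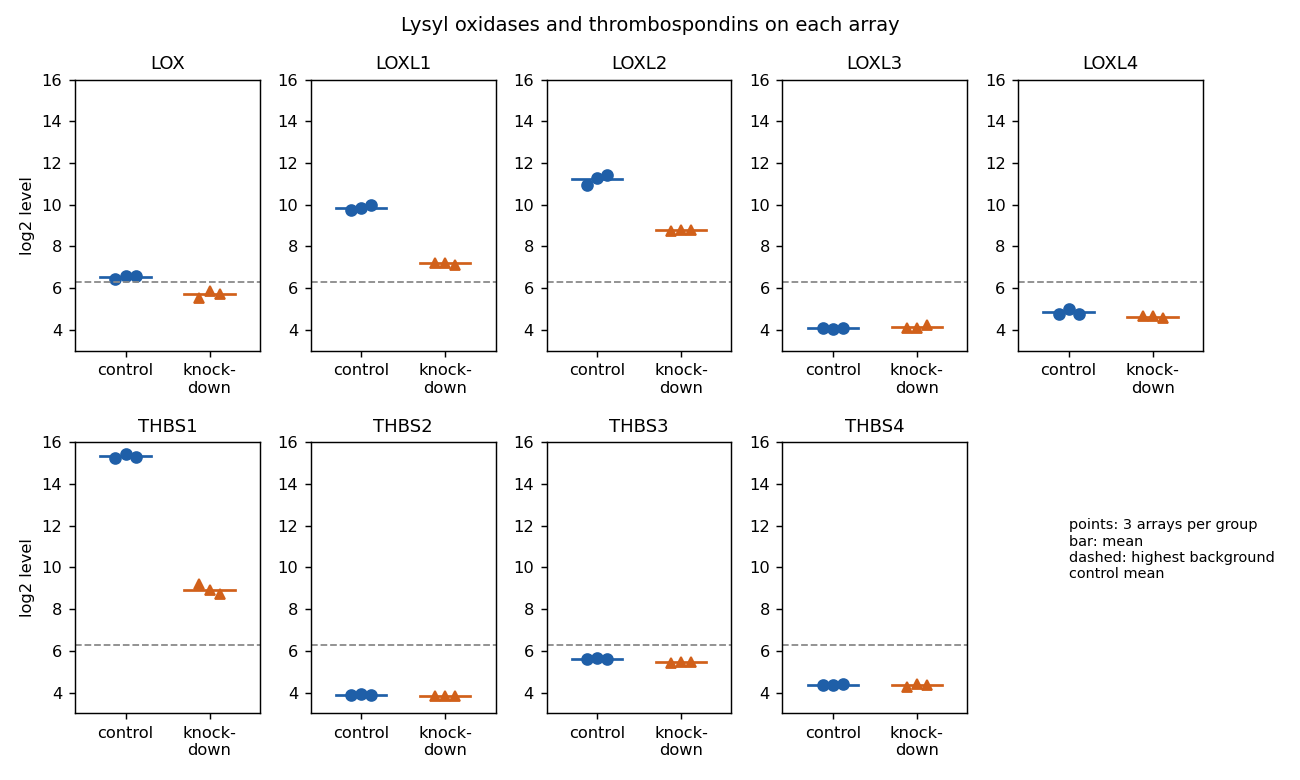
Deposited log2 level (vertical axis) of the 5 lysyl oxidase and 4 thrombospondin genes on each array, with controls as circles, knockdown arrays as triangles, bars for group means and a dashed line at the highest background control mean. THBS1 ran from 15.27 to 15.47 in controls and from 8.74 to 9.19 after knockdown.

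Both matrilins, adaptor proteins of collagen and cartilage matrix, fell. MATN3 was read at 6.22, 6.51 and 6.47 in controls and 4.70, 4.80 and 5.01 after knockdown. Its control mean lay barely above background, which bounds the fall at 1.08-fold or more beside a difference of -1.56 ± 0.10 (SE, adjusted p = 3.6e-05). With levels under background raised to it, MATN3 was no longer called (adjusted p = 0.1). MATN2 fell by 0.46 inside the background range (adjusted p = 0.00099).

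Among the 8399 genes above background in both groups, THBS1 had the lowest difference, and FBN1, LOXL1 and LOXL2 had the 11th, 32nd and 39th lowest. MFGE8, TGFBI and VCAN had the 68th, 94th and 959th lowest, and SPP1 and MFAP5 the 73rd and 191st highest. Members with a group at or below background, FN1, EFEMP1 and LUM included, were not ranked. The 15 members that did not pass had differences between -0.22 and 0.30, and all 15 lay inside the background range.

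**Figure D4:**
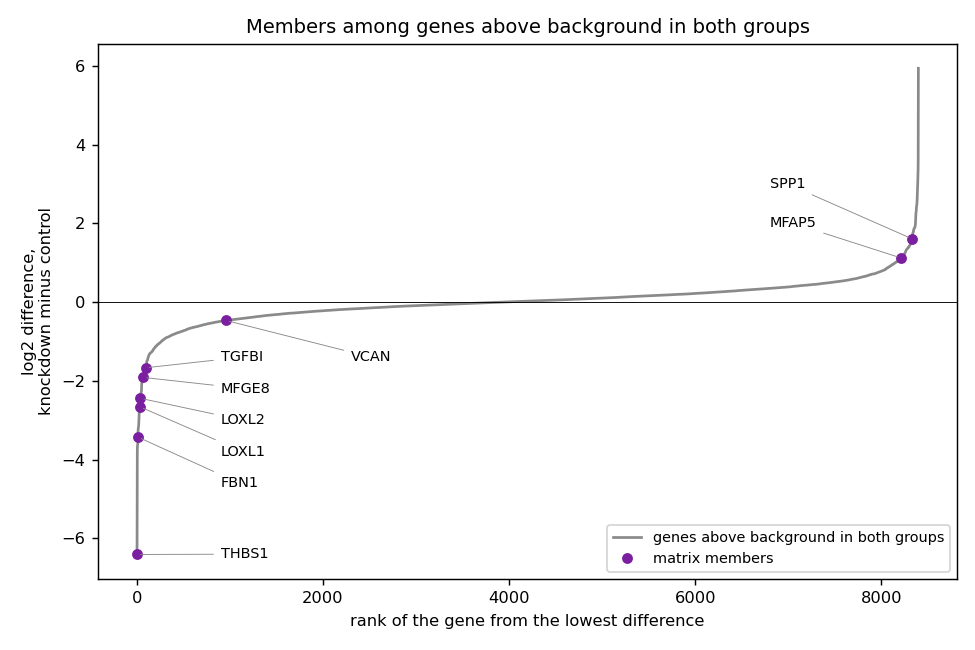
Log2 difference, SND1 knockdown minus vector control (vertical axis), of the 8399 genes above background in both groups, ranked from the lowest (grey line), with the 9 members among them as points. THBS1 has the lowest difference and SPP1 is 73rd from the highest.

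By gene order along the chromosomes, THBS1, FBN1, LOXL1 and MFGE8 all lie on chromosome 15 and all fell. The 484 expressed genes of that chromosome had a median difference of 0.02. The 20 nearest expressed genes had medians of -0.07 around THBS1, -0.002 around FBN1, -0.11 around LOXL1 and 0.05 around MFGE8. Expressed here means a mean above the median of all deposited values, 4.16. On chromosome 14, which holds FBLN5, the median over expressed genes was -0.27, and FBLN5's own 20 neighbours had one of -0.24. On chromosome 13, which holds POSTN, the median over 308 expressed genes was 0.19. The neighbours of POSTN had a median of 0.52, opposite to POSTN itself. Those of SPARCL1 and SPP1, which rose, had medians of 0.25 and 0.18, and these genes lie close together on chromosome 4, so their neighbours overlap. The part of the chromosomal surroundings in these 4 differences was not tested.

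The first control array was the lowest of its group for 14 of the 20 members that fell, including TGFBI, SPOCK1 and LOXL2, and for 43.8% of all genes that fell. Without that array the members' counts were 20 lower and 4 higher, the same as with it. Without the first knockdown array, whose title differs in form, they were also 20 and 4.

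Genes that act with the members moved in both directions. Of 20 genes for receptors of matrix glycoproteins 7 rose and 5 fell, against 15.9% and 16.1% of all genes, with a median of 0.04. Only 4 of the 20 lay inside the background range in both groups, against 13339 of all 22466 genes, so these shares compare sets of unlike brightness. Among the 9127 genes above background in 1 group or both, 2770 rose and 2435 fell. SDC2, encoding syndecan-2, a co-receptor for fibronectin, fell at least 8.45-fold (difference -3.93 ± 0.07 SE, adjusted p = 1.9e-07). ITGB6 and ITGAV, encoding the 2 chains of an integrin that binds fibronectin and latent TGF-beta, rose 5.75-fold and 2.31-fold (adjusted p = 4.3e-06 and 3.6e-05). ITGA4, encoding a chain of another fibronectin receptor, fell by 1.53 on the log2 scale inside the background range.

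Of 11 genes for latent TGF-beta, its binding proteins and receptors 7 fell and 1 rose, against 16.1% and 15.9% of all genes. Above background in at least 1 group were 4 of those that fell and the 1 that rose. The median difference of the 11 genes was -0.26. TGFB2 fell at least 1.40-fold, TGFB1 2.52-fold and the receptor gene TGFBR2 2.31-fold (adjusted p = 1.3e-05, 4.8e-05 and 4.8e-05). LTBP1, whose product tethers latent TGF-beta to fibronectin and fibrillin, rose 1.49-fold (adjusted p = 0.00019).

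Of 10 genes for the copper supply and activation of lysyl oxidases 6 fell and 1 rose, against 16.1% and 15.9% of all genes. These differences were at most 0.48 on the log2 scale in either direction. ATOX1, encoding a copper chaperone, rose by 0.48 on that scale. TLL1 and TLL2, encoding proteases of the BMP1 family, fell by 0.41 and 0.36, and PCOLCE2, encoding an enhancer of procollagen processing, fell by 0.36, all inside the background range (adjusted p from 0.0004 to 0.0011). Of the 10 genes 7 did not exceed the background level in either group.

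Of 40 other measured matricellular and glycoprotein genes 5 rose and 7 fell, against 15.9% and 16.1% of all genes, with a median of -0.01. Above background in at least 1 group were 4 of those that rose and 3 of those that fell. NPNT, encoding the integrin ligand nephronectin, rose 3.33-fold (adjusted p = 6.4e-06) and CCN1, encoding a matricellular ligand of integrins, fell 3.77-fold (adjusted p = 1.1e-05). HMCN1, encoding hemicentin-1, and SRPX fell by 1.31 and 1.51 on the log2 scale inside the background range.

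**Figure D5:**
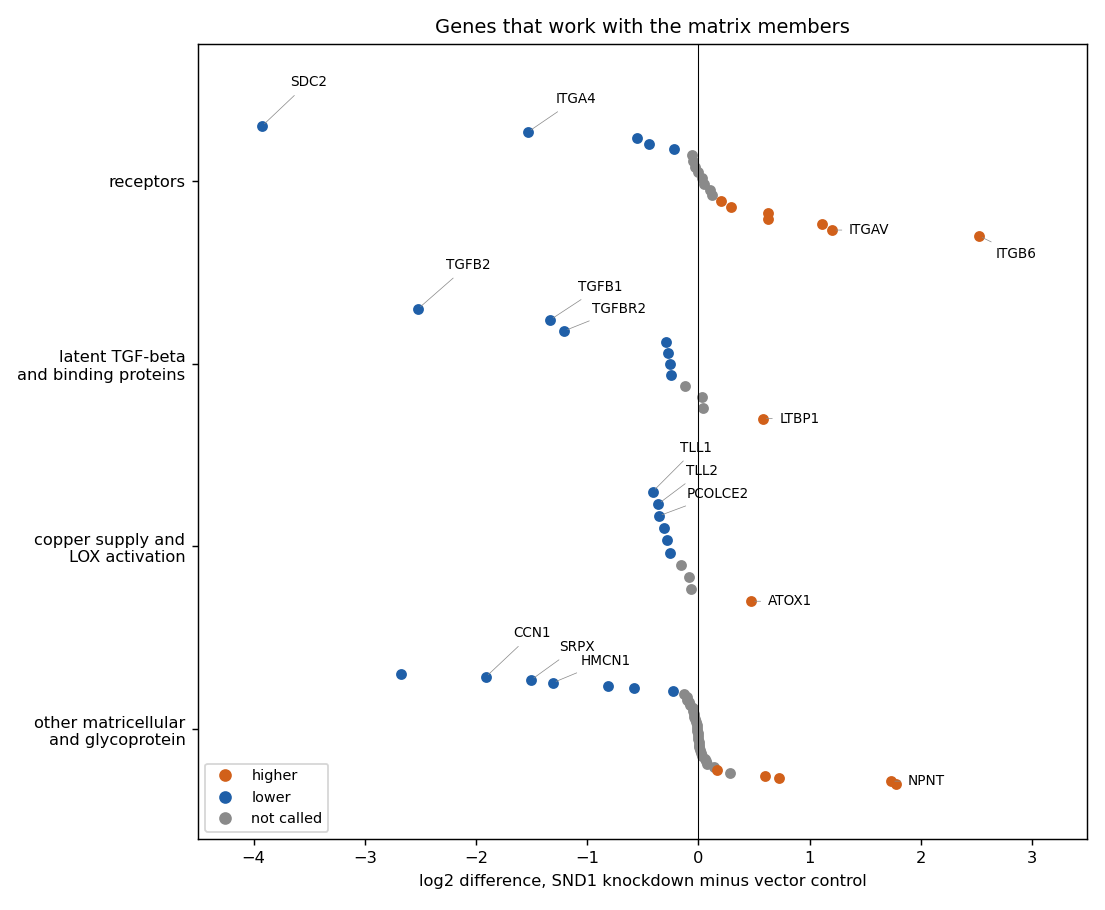
Log2 difference, SND1 knockdown minus vector control (horizontal axis), of each measured gene in 4 lists (vertical axis), coloured by call. The lists hold genes that act with the members and, in the last, other matricellular and glycoprotein genes. The 4 genes with the smallest adjusted p in each list are named, and SDC2 and ITGB6 are at the ends of the receptor list, at -3.93 and 2.52.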

How the data were processed

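RNA was measured on 6 arrays, 3 per group, from 6 µg of total RNA per the labels' protocols. The values the authors deposited are log2 levels of probe sets. RMA is named, with no version, in the submitters' processing notes. The annotation gave 1 gene symbol to 23781 of 70523 probe sets, several to 1543 and none to 45199. Symbols were checked through Entrez identifiers for 21497 probe sets in the RefSeq table, and none differed. Probe sets with several symbols were left out, except that of SND1, and the brightest was taken for the 479 genes with more than 1. The deposited normalization was kept (array medians 4.13 to 4.19).

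Knockdown minus control was estimated with limma 3.58.1 in R 4.3.3 (lmFit, eBayes), with no filter or covariate. The 2-sided p-values were adjusted over all 22466 genes (Benjamini-Hochberg), with a threshold of 0.05. The steps were also run on simulated data, with independent noise and far fewer changed genes than were called here. That run does not measure their error on these data. The labels share replicate numbers, but deviations of same-numbered arrays correlated at -0.02, -0.04 and -0.06, so no pairing was used. The background level of 6.28 is the mean of 1 noisy control probe set, and the next highest means were 5.85 and 5.29, so it is a strict level, and 13339 of the 22466 genes did not exceed it in either group. It was set after the data were seen. No detection calls or scanner files were used here. The members, the gene lists and the rule for named genes (SND1, every member, and the 4 smallest adjusted p of each list) were chosen with earlier results of these data known. The number of arrays limits the precision.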

Additional observations from a re-analysis of the deposited data

How the results depend on the processing

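Results were recomputed under 14 alternatives. With levels under the background level raised to it, which leaves 14 members to test, 11 members fell and 2 rose, and MATN3 lost its call. In that fit 28.3% of the 9299 genes tested fell and 32.6% rose. Under the other alternatives 19 or 20 members fell and 4 or 5 rose. Of the 24 called members 22 kept direction and call wherever they were tested, and the exceptions were THBS3 and MATN3. The replicate numbers as a replicate block gave 19 members lower and 4 higher, and 3137 genes lower and 3094 higher against 3608 and 3561 without it. Of the 6 arrays 0 correlated best with the array of its own number in the other group. Leaving out 1 array at a time gave 2955 to 3385 genes lower and 2908 to 3507 higher. Centring on medians moved the median of all genes from 0.003 to 0.06. Signal over background limits 25 of the 39 members, which did not exceed that level in either group.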

Other observations

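Several further genes of the same lists were named after their values were seen. CCN2, encoding a matricellular protein related to CCN1, fell at least 4.69-fold (limma difference -2.67, adjusted p = 0.00026), while the family member CCN3 rose 3.42-fold (difference 1.77, adjusted p = 0.00019). EDIL3, a relative of MFGE8 that also binds integrins, fell 1.76-fold (adjusted p = 0.0006). Among receptors, ITGB3, a partner chain of ITGAV in receptors for vitronectin and osteopontin, rose 2.16-fold (adjusted p = 0.00092) and CD47, a receptor for thrombospondin-1, rose 1.55-fold (adjusted p = 7.9e-05). ITGA5 and ITGB1, the chains of the classical fibronectin receptor, fell 1.36-fold and 1.16-fold (adjusted p = 0.0012 and 0.012). In the list for copper supply and lysyl oxidase activation, ATP7A and BMP1 fell 1.22-fold and 1.19-fold (adjusted p = 0.015 and 0.034). SLC31A1, at 14.17 in controls, differed by -0.07 and did not pass (adjusted p = 0.49).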
